A study of Saccharomyces cerevisiae with 4 samples.

Results

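The 10 snoRNAs SNR41, SNR54, SNR55, SNR56, SNR57, SNR70, SNR74, SNR77, SNR79 and SNR87 are box C/D snoRNAs that guide 2′-O-methylation of the yeast 18S rRNA and have no known methylation target in 25S. They are named by their gene symbols. The rule that chose them names their target and uses no measured value, but the set was drawn up with earlier results of these data known. It leaves out SNR53, also a methylation guide of 18S, which had 1 read in WT and 0 with Dbp7-HTP. The 10 guides form the small-subunit contrast to the guides of 25S in a study of Dbp7, an RNA helicase of early pre-60S particles. RNAs cross-linked to protein were sequenced by PAR-CRAC, a method in which cells take up 4-thiouracil, long-wave UV light links the resulting 4-thiouridine to proteins, and a T-to-C change in a read marks the link. Of the 4 libraries, 2 came from wild-type (WT) BY4741 cells without a tagged protein and 2 from BY4741 cells in which genomic Dbp7 carried a C-terminal His-Tev-ProtA tag (Dbp7-HTP), and both strains were grown in low uracil medium with 4-thiouracil and irradiated. The bait is Dbp7 by the sample titles, the tag label and the methods of the study, whereas the growth text of the labels names Has1, Mak5 or Spb4 instead. The WT libraries hold the RNA that is recovered without a bait. Individual snoRNAs were analysed in 1 library per strain, WT replicate 2 with 467529 reads and Dbp7-HTP replicate 2 with 730583 reads, so that the snoRNA values have no replicate check and no test between strains is given. All 10 were present in both libraries, among 77 RNAs listed, and all 10 are annotated as snoRNAs in RefSeq. Target positions, here and in the order of the guides, are textbook assignments that these files cannot test.

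A box C/D snoRNA assembles with the methyltransferase fibrillarin (Nop1 in yeast), Nop56, Nop58 and Snu13, and a guide stretch upstream of its box D or D′ basepairs with the pre-rRNA. The nucleotide paired at a fixed distance from that box receives a methyl group on its ribose. Guides of 18S act on the 5′ part of the 35S pre-rRNA, in the SSU processome, before or around the cleavages that part the small-subunit from the large-subunit precursor.

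In Dbp7-HTP replicate 2 the guides of 18S were recovered at lower values than in WT replicate 2. The 602 reads that they had together in WT stood against 264 with Dbp7-HTP. Scaled to 1000000 mapped reads (RPM), the ratio of Dbp7-HTP to WT was 0.281 (95% exact interval 0.242 to 0.325). Each of the 10 had a ratio below 1, from 0.142 for SNR87 to 0.989 for SNR55, with a median of 0.301. The median over the 75 listed RNAs for which a ratio was formed was 0.730, and over the 65 of these other than the 10 guides it was 0.807. The ratio was at or below 0.5 for 8 of the 10 guides, against 36% of the 75 RNAs, and at or above 2 for 0 of the 10, against 12%. A ratio below 1 was found for 60% of the 75. The whole interval lay below 1 for 8 of the 10 guides and for 37.3% of the 75. Ordered from the lowest ratio, 8 of the 10 guides were among the first 25 of the 75 RNAs. Intervals cover counting error only and treat reads as independent, which PCR duplicates are not, and they compare these libraries and not the strains. The values are shares of the reads recovered after cross-linking, not amounts of snoRNA in the cells, and in such bulk libraries fewer cells giving an RNA and less of it per cell cannot be told apart.

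**Figure D1:**
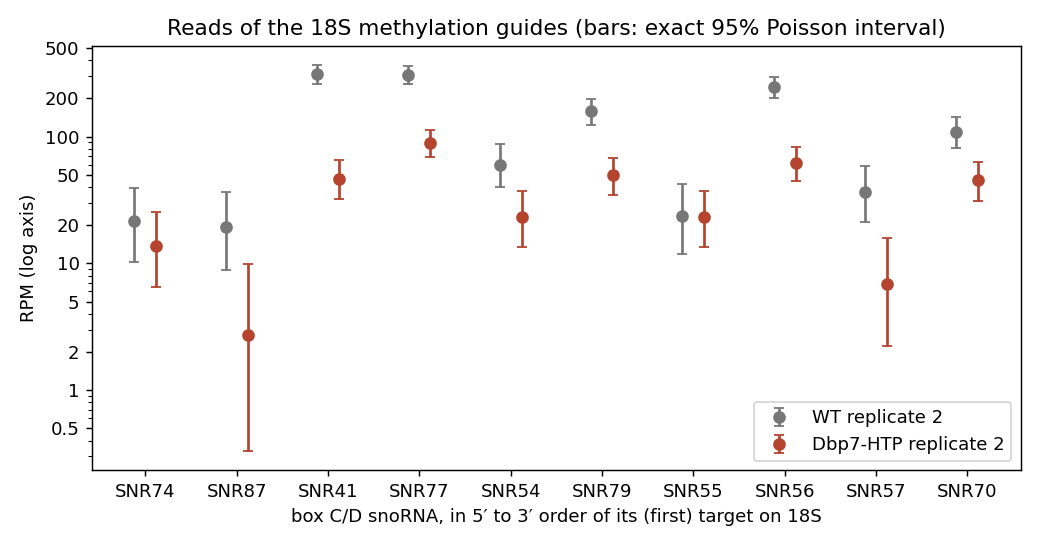
RPM of each of the 10 guides of 18S in WT replicate 2 (grey) and Dbp7-HTP replicate 2 (red), on a log axis, with exact 95% Poisson intervals of the read number. The points of SNR55 lie at the same height, at 23.5 and 23.3 RPM, whereas SNR41 shows 310.1 RPM in WT against 46.5 with Dbp7-HTP.

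Among guides that act toward the 5′ end of 18S, SNR74, which methylates an adenosine close to that end, had 10 reads in each library, or 21.4 RPM in WT and 13.7 with Dbp7-HTP. Its ratio of 0.640 had an interval of 0.239 to 1.71, so that no difference between the libraries was detectable at this depth. SNR87, which methylates an adenosine further along, had 9 reads in WT and 2 with Dbp7-HTP, or 19.3 and 2.74 RPM. Its ratio of 0.142 was the lowest of all 75, but its interval of 0.0150 to 0.687 was the widest of the 10 guides relative to the ratio. SNR41, which methylates an adenosine in the 5′ part and a guanosine nearer the middle, was the guide with the most reads in WT, 145, or 310.1 RPM. It had 34 reads, or 46.5 RPM, with Dbp7-HTP. The ratio of 0.150 (0.100 to 0.219) was the third lowest of the 75.

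Further along, to the middle of 18S, SNR77, SNR79 and SNR54 had ratios close to each other. SNR41, with its second site nearer the middle, was lower at 0.150. SNR77, which methylates a uridine, had 143 reads or 305.9 RPM in WT and 65 reads or 89.0 RPM with Dbp7-HTP, a ratio of 0.291 (0.214 to 0.393). SNR79, which methylates a cytidine, had 74 reads or 158 RPM in WT and 36 reads or 49.3 RPM with Dbp7-HTP, a ratio of 0.311 (0.203 to 0.470). SNR54, which methylates an adenosine, had 28 reads or 59.9 RPM in WT and 17 reads or 23.3 RPM with Dbp7-HTP, a ratio of 0.389 (0.200 to 0.735). The intervals of SNR54, SNR77 and SNR79 overlapped, and all lay below 1.

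Guides with sites in the 3′ part had ratios from 0.188 to 0.989, the highest resting on the few reads of SNR55. SNR55, which methylates a uridine, had 11 reads or 23.5 RPM in WT and 17 reads or 23.3 RPM with Dbp7-HTP, a ratio of 0.989 (0.437 to 2.34). SNR56, which methylates a guanosine, had 114 reads or 243.8 RPM in WT and 45 reads or 61.6 RPM with Dbp7-HTP, a ratio of 0.253 (0.175 to 0.360). SNR57, which also methylates a guanosine, had 17 reads or 36.4 RPM in WT and 5 reads or 6.84 RPM with Dbp7-HTP, a ratio of 0.188 (0.0543 to 0.531). SNR55 was thus level between the libraries, within a wide interval, while SNR56 and SNR57 were lower with Dbp7-HTP. Closest to the 3′ end, SNR70, which methylates a cytidine near the decoding centre, had 51 reads or 109 RPM in WT and 33 reads or 45.2 RPM with Dbp7-HTP. Its ratio was 0.414 (0.259 to 0.654). RPM is not divided by snoRNA length, so the RPM of different snoRNAs do not give an order of abundance.

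**Figure D2:**
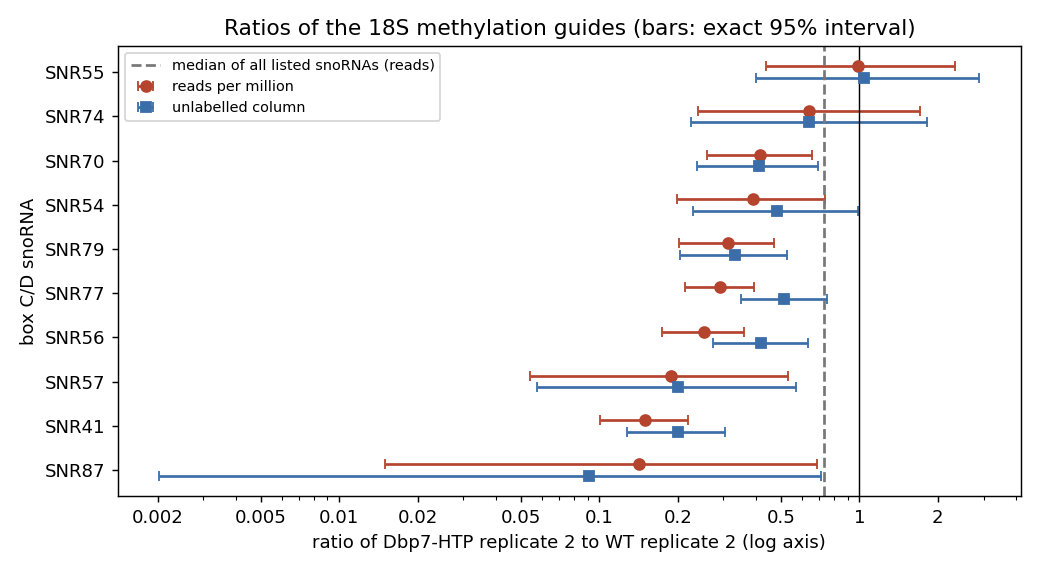
Ratio of Dbp7-HTP replicate 2 to WT replicate 2 for each guide, from reads (red circles) and from the last, unlabelled column of the snoRNA tables (blue squares), on a log axis with exact 95% intervals. The intervals of SNR55 and SNR74 cross 1, and the dashed line is the median of 0.730 over the 75 RNAs.

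Of the 45 pairs that the 10 guides can form, 5 had intervals that did not overlap. These were SNR41 against SNR55, SNR70 and SNR74, and SNR55 against SNR56 and SNR77. Overlap of single intervals does not settle the order of the other pairs, and among those for which the quotient itself was computed, the ratio of SNR55 was 5.25 times that of SNR57 (95% exact interval 1.31 to 23.0) and 6.95 times that of SNR87 (1.08 to 74.2). In the composition of the group, the intervals of the shares of SNR41 and SNR55 did not overlap between the libraries, and those of the other 8 guides did. SNR77 gave 23.8% of the reads of the 10 guides in WT (95% Wilson interval 20.5 to 27.3%) and 24.6% with Dbp7-HTP (19.8 to 30.2%), whereas SNR41 gave 24.1% (20.8 to 27.7%) and 12.9% (9.36 to 17.5%). SNR55 gave 1.83% (1.02 to 3.24%) and 6.44% (4.06 to 10.1%).

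The scale decides whether a ratio lies below 1. rRNA made up 32.6% of mapped reads in WT replicate 2 and 70.1% in Dbp7-HTP replicate 2, so that scaling to the reads outside rRNA multiplied every ratio by 2.25. On that scale 8 of the 10 guides stayed below 1, against 32% of the 75 RNAs, and SNR55 and SNR74 were above it, at 2.23 (0.983 to 5.26) and 1.44 (0.538 to 3.85). The median of the 10 guides was then 0.677 and that of the 75 RNAs 1.64. On the same scale 3 guides, SNR41, SNR57 and SNR87, were at or below 0.5, against 8% of the 75 RNAs, and 1, SNR55, was above 2. The intervals of SNR57 (0.122 to 1.20) and SNR87 (0.0336 to 1.55) included 1 on this scale. Over the 75 RNAs the split changed from 27 at or below 0.5 and 9 at or above 2 in RPM to 6 and 32. The intervals of SNR41, SNR56 and SNR77 lay below 1 on both scales. On the scale of reads outside rRNA this held for 3 of the 10 guides and for 6 of the 75 RNAs. The place of the 10 guides among the 75 RNAs does not depend on the scale, since each scale multiplies all ratios by the same factor.

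As a share of all listed snoRNA reads, which does not involve rRNA, the 10 guides made up 14.02% in WT replicate 2 (602 of 4295 reads, 95% Wilson interval 13.0 to 15.1%) and 3.03% in Dbp7-HTP replicate 2 (264 of 8725 reads, 2.69 to 3.41%). SNR190, another box C/D snoRNA, gave 50.7% of the listed reads with Dbp7-HTP and 5.49% in WT. Without SNR190 the shares of the guides were 14.8% (13.8 to 16.0%) and 6.14% (5.46 to 6.90%). Ratios scaled to the listed reads without SNR190 were at or below 0.5 for 6 of the 10 guides, against 20% of the 75 RNAs. They were below 1 for 9 of the 10, against 46.7%, and SNR55 was the exception at 1.46. Reads of the whole snoRNA class made up 9186 RPM in WT replicate 2 and 26496 RPM in WT replicate 1, which is 2.88 times as many, while the Dbp7-HTP libraries, at 11942 and 11514 RPM, lay 1.04-fold apart. The WT libraries thus differed in their snoRNA content, and its part in the values of single guides was not tested.

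The 10 guides were set beside other guides by target and type. The 26 box C/D guides of 25S and not of 18S had a median ratio of 0.640 and ranged from 0.172 to 4.30, with 10 at or below 0.5 and 19 below 1. The 4 box C/D snoRNAs that guide methylation of both 18S and 25S had a median of 0.366 and ranged from 0.145 to 1.36, with 3 of the 4 at or below 0.5. A further 6 box C/D snoRNAs act on 18S in another way (U3 in cleavage, U14 in cleavage and methylation, SNR4 and SNR45 in acetylation) or, as with the methylation guide SNR53 and its 1 read in WT, were too rare for a ratio. Of the 5 with a ratio, 3 were at or below 0.5 and the median was 0.424, with a range of 0.333 to 1.27. The 2 above 1 were those of U3, SNR17A at 1.27 (0.978 to 1.65) and SNR17B at 1.07 (0.737 to 1.56). Box H/ACA snoRNAs direct the other common rRNA modification, pseudouridylation. Of the 6 that act on 18S and not on 25S, 5 had enough reads for a ratio, and their median was 1.37, with 0 at or below 0.5, 1 below 1 and a range of 0.566 to 2.2. They had only 7 to 26 reads each in WT. The whole interval lay above 1 for 1 of these 5 and below 1 for 0. The range of the 10 guides and that of these 5 overlapped between 0.566 and 0.989. Summed over each group, the ratio of the 10 guides was 0.351 times that of the 26 guides of 25S (95% exact interval 0.297 to 0.416) and 0.233 times that of the 6 H/ACA snoRNAs (0.166 to 0.325). It was 0.740 times that of the 4 guides of both rRNAs (0.614 to 0.890) and 0.505 times that of the further 6 box C/D snoRNAs (0.420 to 0.607). These 4 intervals compare read numbers of the same libraries, in which SNR41, SNR56 and SNR77 held most of the WT reads of the group. Of the 1361 reads of the guides of 25S with Dbp7-HTP, 278 came from SNR71 and 195 from SNR73. In WT these had 105 and 29 of 1090 reads. SNR40 gave 537 of the 872 WT reads of the guides of both rRNAs and 330 of their 517 with Dbp7-HTP. U14 gave 380 of the 723 WT reads of the further 6 and 252 of their 628 with Dbp7-HTP. The 4 intervals are no test of a difference between classes of snoRNA.

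**Figure D3:**
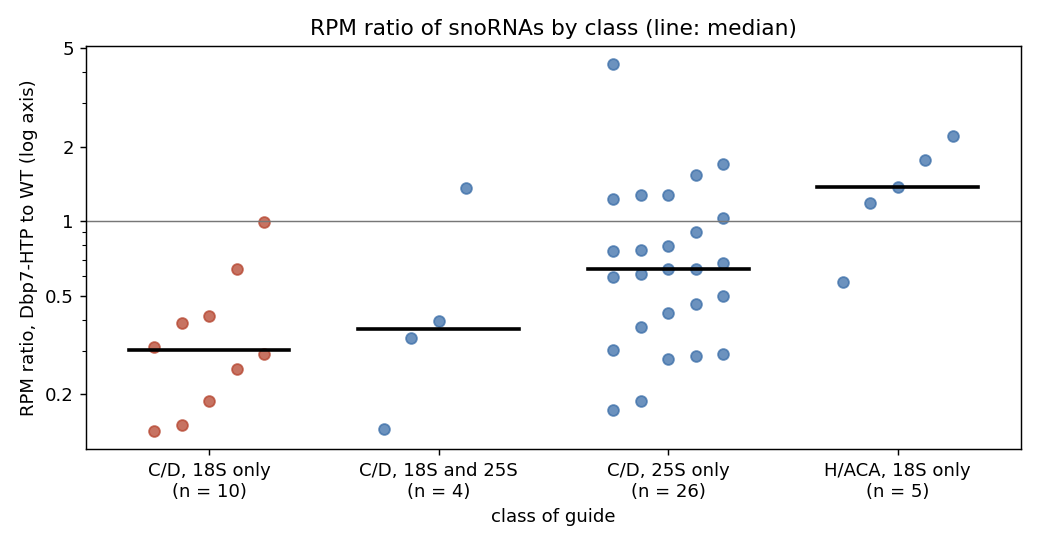
RPM ratio of Dbp7-HTP replicate 2 to WT replicate 2 on a log axis for single snoRNAs, grouped by type and target, with the median as a black line. The 10 guides of 18S (red) all lie below 1 around a median of 0.301, and those of 25S spread from 0.172 to 4.30. Of the 5 H/ACA snoRNAs of 18S, 4 lie above 1, but only 1 has its whole interval above 1.

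A number of these snoRNAs share a precursor. In RefSeq (assembly R64, used here for names and gene order only) SNR70 lies between SNR51 and SNR41, SNR55 lies between SNR61 and SNR57, and SNR74 and SNR77 lie in the row of 7 genes from SNR72 to SNR78. These rows are known to be transcribed as polycistronic precursors that are cut into single snoRNAs, and they hold 6 of the 10 guides. SNR54 lies within the intron-containing gene IMD4.

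Values within a precursor were not uniform. Beside SNR41 at 0.150, SNR70 had a ratio of 0.414, which was 2.76 times that of SNR41 (95% exact interval 1.49 to 5.10), and SNR51, which guides sites in both rRNAs, had a ratio of 0.339 (0.180 to 0.617). In the second precursor the ratio of SNR55, 0.989, stood above that of SNR57, as given above, and was 3.28 times that of SNR61 (1.38 to 8.02), a guide of 25S with 212 reads in WT and 100 with Dbp7-HTP. In the third, SNR77 at 0.291 and SNR74 at 0.640 differed by a factor of 2.2 whose interval, 0.777 to 6.19, included 1. The 5 guides of 25S from that precursor ranged from 0.278 for SNR78 to 4.30 for SNR73, which had 29 reads in WT and 195 with Dbp7-HTP. The ratio of SNR73 was 14.8 times that of SNR77 (8.86 to 24.9) and 6.72 times that of SNR74 (2.27 to 19.6). SNR78 and SNR77, which act on different rRNAs, had a factor of 0.957 between them (0.383 to 2.24). Within each of the 3 precursors, at least 1 pair of snoRNAs thus differed by more than the counting error of reads. By the unlabelled column, SNR70 and SNR41 had ratios of 0.410 and 0.200, and SNR73 and SNR77 of 3.34 and 0.514. SNR55, SNR61 and SNR57 had 1.04, 0.503 and 0.200. Most of these pairs lay closer than by reads, and no quotient was tested in that column. Of the 16 pairs of single snoRNAs for which an interval was computed from reads, no interval was adjusted for the number of pairs.

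**Figure D4:**
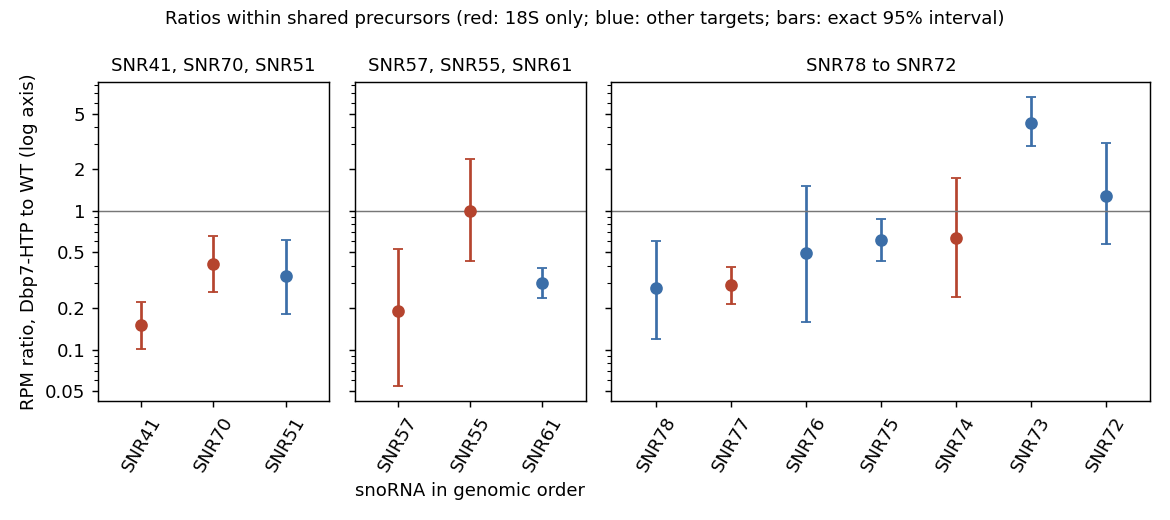
RPM ratio of Dbp7-HTP replicate 2 to WT replicate 2 with exact 95% intervals, on a log axis, for the snoRNAs of 3 shared precursors in genomic order. Guides of 18S only are red and other guides are blue, and in the right panel SNR73, at 4.30, stands above SNR77, at 0.291.

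The snoRNA tables name none of their columns. The one used above was taken as the reads because it summed to the class total. The last, called here the unlabelled column, was converted to whole numbers by the same rule and never exceeded the read number. In the layout of a pyCRAC hit table it would be the number of distinct cDNAs, that is, reads after removal of identical copies, but the files do not name it. Summed over the 10 guides it held 378 in WT and 220 with Dbp7-HTP, so that there were 1.59 reads per unit of this column in WT and 1.20 with Dbp7-HTP. Reads per unit were also lower with Dbp7-HTP for the guides of both rRNAs (2.36 and 1.78) and of 25S (1.63 and 1.55). Over all listed RNAs they were higher (1.68 and 2.13), with SNR190 at 2.36 and 3.98. SNR77 held 66 and 53 in this column, for 2.17 and 1.23 reads per unit, and its ratio was 0.514 (0.351 to 0.749) in place of 0.291. SNR56 held 61 and 40, and its ratio was 0.420 (0.274 to 0.635) in place of 0.253. The median of the 10 guides was 0.415 by this column and 7 were at or below 0.5, against 25.3% of the 75 RNAs. Intervals by this column still lay below 1 for 8 of the 10 guides, against 23 of the 75 RNAs.

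Coverage of 18S itself, the rRNA these snoRNAs modify, was available for all 4 libraries. As a share of coverage over the mature rRNAs transcribed in the 35S pre-rRNA, 18S took 32.0% in WT replicate 1 and 42.7% in WT replicate 2, against 7.76 and 8.31% in the corresponding Dbp7-HTP libraries. The means were 37.3% ± 7.59 (SD, n = 2) for WT and 8.03% ± 0.393 (SD, n = 2) for Dbp7-HTP, and the libraries of the strains did not overlap (p = 0.333 in a two-sided exact permutation test, which cannot give less with 2 libraries against 2). The share is relative, so more 25S coverage lowers it without any loss of 18S. Coverage at the single nucleotides that the 10 guides methylate was not analysed here.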

How the data were processed

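The authors mapped the reads with Bowtie2 (version 2.2.4), retained only reads carrying T-to-C changes, and counted reads per RNA with pyCRAC. The genome release is not given in the sources used here. The deposited snoRNA and RNA class values are scores, namely RPM cut to whole numbers. The deposited 35S files hold the coverage signal per nucleotide and a count of substitutions, both without normalization.

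With the totals in the deposited files, 100% of the snoRNA values taken as reads equalled a whole number of reads after cutting. Their sums returned the deposited class values of 9186 and 11942. No such check is given for the unlabelled column. Ratios were formed from those reads, except for RNAs with 3 reads or fewer in both libraries, which left 75 of 77. Intervals at 95% are Clopper-Pearson for ratios, conditional exact for quotients of ratios and Wilson for shares. The ratio procedure was tested on simulated data. The smallest ratio differences visible depend on depth: 1 read was 2.14 RPM in WT replicate 2 and 1.37 in Dbp7-HTP replicate 2. The replicates come from independent experiments according to the study, while the labels do not name separate cultures.

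All 10 guides are named, as are their neighbours in shared precursors, SNR190 and, for its many reads, SNR71. The 18S share of coverage was added after seeing the data, in place of coverage at the methylated nucleotides. Members, lists and tests were chosen with earlier results of these data known. Alternatives covered scaling, fold, minimum reads, an added read, the base of shares, the unlabelled column and, for 18S, the measure, pairing by replicate number and leaving 1 library out. Python 3.11.15, numpy 2.4.6, scipy 1.17.1 and matplotlib 3.10.9 were used.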

Additional observations from a re-analysis of the deposited data

How the results depend on the processing

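The median ratio of the 10 guides, 0.301, was 0.677 when scaled to reads outside rRNA, 0.232 scaled to all listed snoRNA reads, 0.444 scaled to those without SNR190, and 0.415 from the unlabelled column, which, like all alternatives for 18S coverage, was added after seeing the data. It was 0.305 with 1 read added to each library and 0.291 over the 5 guides with at least 50 reads. The count at or below 0.5, which was 8 (36% of the 75 RNAs), became 3 on the scale of reads outside rRNA (8%). It was 9 scaled to all listed snoRNA reads (45.3%), 6 scaled to those without SNR190 (20%) and 7 in the unlabelled column (25.3%). With 1 read added, or with at least 10 reads required, the count stayed at 8. At a limit of 1.5-fold 9 guides were lower, against 45.3% of the 75 RNAs. At 3-fold 6 guides were lower, against 18.7%. No ratio of a guide past 2-fold changed direction. For the scalings this was fixed in advance, since the largest common factor was 2.25 and the highest of these ratios was 0.414, for SNR70. On the scale of reads outside rRNA, only 3 of the 10 guides had an interval wholly below 1. For single guides, 6 ratios moved beyond their counting interval on the scale of reads outside rRNA, 3 on that of listed reads without SNR190 and 2 in the unlabelled column. Since a scale multiplies all ratios by the same factor, its count reflects the width of the intervals and not a difference between guides. The 4 that stayed within their interval outside rRNA were SNR55, SNR57, SNR74 and SNR87, with 9 to 17 reads in WT.

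The share of the guides among box C/D reads was 17.1% in WT replicate 2 and 3.67% in Dbp7-HTP replicate 2, and without SNR190 it was 18.3 and 9.53%. Among all listed reads without SNR190 it was 14.8% in WT replicate 2 and 6.14% in Dbp7-HTP replicate 2. In the unlabelled column, over all listed RNAs, it was 14.8% in WT replicate 2 and 5.36% in Dbp7-HTP replicate 2. The difference in 18S share, -29.3 percentage points, was -29.3 with the replicate number as a replicate block, -24.2 in replicate 1 and -34.4 in replicate 2, and -34.7 to -23.9 with 1 library left out. Coverage at the methylated nucleotides of 18S was not run, because no snoRNA sequence was used here, and the replicate omission was not possible for single snoRNAs, with 1 library per strain. Depth limits SNR55, SNR57, SNR74 and SNR87 most, with 9 to 17 reads in WT.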
